A study of Mus musculus with 18 samples.

Results

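The 6 genes that encode receptors for chemoattractants, Fpr1, Fpr2, Ptafr, C5ar1, C3ar1 and Ltb4r1, were followed in mouse eosinophils exposed to apoptotic cells. They were chosen by name, as the rows whose Ensembl gene identifier, with its version dropped, carries one of these symbols, and they are 6 of the 54446 genes measured. RNA was sequenced with CEL-Seq2, a method that reads tags from the 3' end of transcripts, in 18 libraries of peritoneal eosinophils of C57BL/6 background. The cells came from Il5Tg mice, which overproduce the eosinophil growth factor interleukin 5 from a transgene and therefore hold many eosinophils, and anti-Siglec-F beads were used to re-isolate them after culture. All 6 groups received apoptotic cells (ACs), made from wild type thymocytes by dexamethasone, so that no group shows eosinophils without apoptotic cells. In the Type 1 experiment, the 4 groups, of 3 libraries each, had ACs alone (ACs), bacteria too (E. coli + ACs), the type 1 cytokine interferon gamma too (IFN-γ + ACs), or both (IFN-γ + E. coli + ACs). Per the study, cells with both stimuli received IFN-γ first and E. coli after it. In the IL-4 experiment, 2 groups of 3 libraries received ACs alone or IL-4 + ACs. The labels do not say which ACs libraries belong to which experiment in words, and they were assigned by the naming style that each set shares with its stimulated libraries.

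Chemoattractant receptors are G protein-coupled receptors in the plasma membrane of leukocytes that steer the cells along gradients of their ligands and also trigger calcium release, oxidant production and degranulation. Formyl peptide receptors recognise peptides with a formylated methionine, which bacteria and mitochondria make and the cytosol of animal cells does not, so that they report both infection and broken cells. The other receptors report lipid mediators (platelet-activating factor and leukotriene B4) or fragments of activated complement (C3a and C5a). Eosinophils are granulocytes that migrate towards most of these ligands.

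Fpr1 (ENSMUSG00000045551.7) and Fpr2 (ENSMUSG00000052270.7) are neighbours on chromosome 17 of GRCm38, at chr17:17876471-17883940 on the minus strand and chr17:17887824-17893952 on the plus strand. They are 3883 bases apart and are read away from each other. A stretch of 250 bases before the start of each gene is given because the responses of this pair differed most among the stimuli. Both are from RefSeq (GRCm38.p6) and are written 5′ to 3′ on the strand of the gene, chr17:17883940-17884189 on the minus strand for Fpr1 and chr17:17887574-17887823 on the plus strand for Fpr2. Capitals mark a match to TTCNNNGAA, the letters of the gamma-activated sequence bound by STAT factors.
Fpr1: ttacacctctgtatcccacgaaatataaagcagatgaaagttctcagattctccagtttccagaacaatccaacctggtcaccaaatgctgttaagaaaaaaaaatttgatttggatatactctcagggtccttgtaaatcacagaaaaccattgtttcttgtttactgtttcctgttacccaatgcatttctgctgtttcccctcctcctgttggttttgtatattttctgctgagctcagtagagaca
Fpr2: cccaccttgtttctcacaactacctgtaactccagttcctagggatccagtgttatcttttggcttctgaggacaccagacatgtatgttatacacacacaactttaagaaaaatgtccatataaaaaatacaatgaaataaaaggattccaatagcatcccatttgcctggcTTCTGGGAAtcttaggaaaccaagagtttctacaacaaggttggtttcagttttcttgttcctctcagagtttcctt
The match in Fpr2 begins 77 bases before the start of the gene. TTCNNNGAA was present in 7.18% of 27025 promoter windows of this length, searched on both strands, and in 1 of the 6 receptor genes. The core of the interferon-stimulated response element was in 3.04% of the windows, and an NF-kB-like motif was in 1.17%. Neither was found in the windows of the 6 genes. A match of letters is a description and does not show a site in use.

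The other receptor genes lie apart. Ptafr (ENSMUSG00000056529.7), the receptor for platelet-activating factor, is at chr4:132564067-132582683 on the plus strand. C5ar1 (ENSMUSG00000049130.6), the receptor for C5a, is at chr7:16246743-16259540 on the minus strand, and C3ar1 (ENSMUSG00000040552.8), the receptor for C3a, is at chr6:122847138-122856161 on the minus strand. Ltb4r1 (ENSMUSG00000046908.5), the high-affinity receptor for leukotriene B4, is at chr14:55765962-55768494 on the plus strand.

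The values are normalized counts, which are reads counted on a gene divided by a size factor of the library. Depth lay between 779421 and 7782072 counted reads a library, and the shallowest pair, with 849705 and 779421 reads, was replicate 3 of IL-4 + ACs and of its ACs. The lowest number of reads behind any value of a receptor gene was 17 for Fpr1, 24 for Fpr2, 62 for C5ar1, 87 for Ltb4r1, 253 for Ptafr and 458 for C3ar1. The eosinophil markers Siglecf and Ccr3 were present in every library, at 1514 to 3367 and 2623 to 4934, whereas Epx, which encodes eosinophil peroxidase, was between 0 and 25.7. Ear1 lay at 2.45 to 77.1, Ear2 at 0 to 257, Prg2 at 57.5 to 270 and Il5ra at 102 to 455. Ear6 lay at 336 to 8689 and Alox15 at 5145 to 11929. These 9 markers summed to 0.411% to 0.464% of the total in ACs of the Type 1 experiment. This share was 0.418% to 0.453% in E. coli + ACs, 0.213% to 0.245% in IFN-γ + ACs and 0.317% to 0.364% in IFN-γ + E. coli + ACs. In the IL-4 experiment it was 0.507% to 0.584% in ACs and 0.548% to 0.648% in IL-4 + ACs. Macrophage markers were also found in every library. The summed normalized counts of 12 of them were 0.507% to 0.635% of the total in ACs of the Type 1 experiment, 0.259% to 0.315% in E. coli + ACs, 0.697% to 0.897% in IFN-γ + ACs and 0.283% to 0.302% in IFN-γ + E. coli + ACs. They were 0.732% to 1.03% in ACs of the IL-4 experiment and 0.562% to 0.877% in IL-4 + ACs. The 12 neutrophil markers summed to 0.0374% to 0.128%. Elane and Mpo were at 0 in all stimulated libraries of the Type 1 experiment and at 12.03 or less elsewhere. Others of the 12 were higher, with Retnlg at 746 to 4666, Mmp8 at 60.8 to 653 and Cxcr2 at 24.1 to 367. The 13 thymocyte markers summed to 0.00117% to 0.00506%, and those of B cells and mast cells to at most 0.00217% and 0.0012%. In bulk samples fewer cells of a type and less RNA per cell cannot be told apart.

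A gene was past the threshold when its change was at least 1.5-fold at a Benjamini-Hochberg adjusted p under 0.05 in limma, over all genes whose mean reached 10 normalized counts. All 6 receptor genes passed that filter in every fit. Log2 fold changes are of the normalized count plus 1. The study calls its replicates biological, but the labels tie no library to an animal or culture, and p-values measure the spread between these samples.

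Against ACs, 4 of the 6 receptor genes rose with E. coli + ACs (Fpr1, Fpr2, Ptafr and Ltb4r1), where 10.3% of all tested genes were past the threshold in either direction and 5.05% in the upward direction. With IFN-γ + ACs, 2 rose (Fpr2 and Ptafr), against 21.4% of all genes in either direction and 11.4% upward. With IFN-γ + E. coli + ACs, 4 rose (Fpr1, Fpr2, Ptafr and C5ar1), against 31.9% in either direction and 14.7% upward. With IL-4 + ACs, 2 fell (Fpr1 and Fpr2), against 1.09% in either direction and 0.347% downward. No receptor gene fell past the threshold with a Type 1 stimulus and none rose with IL-4.

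**Figure D1:**
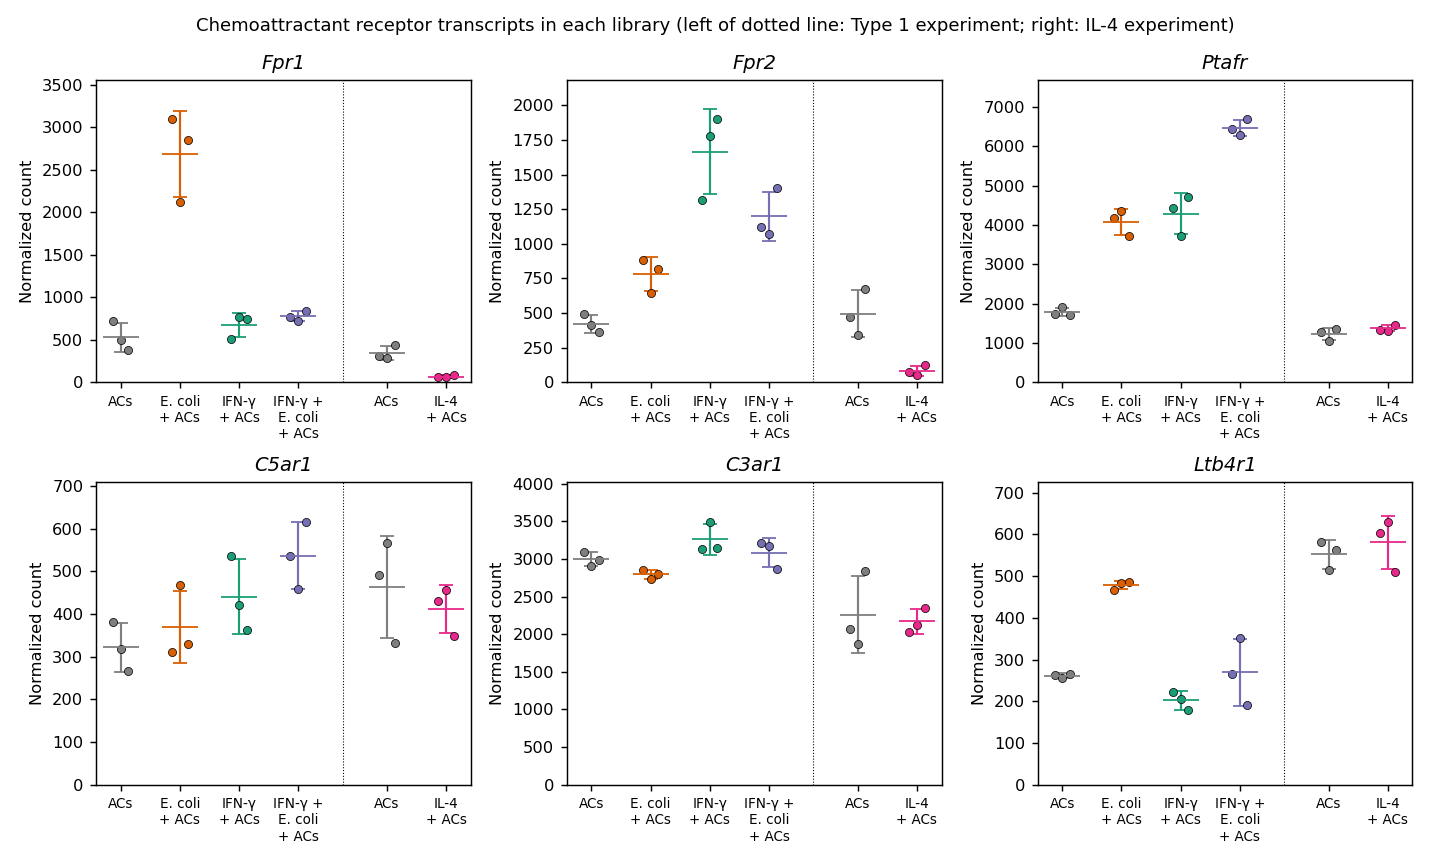
Normalized counts of the 6 receptor genes, with 1 panel per gene and the groups along the horizontal axis; points are libraries, wide bars are means and thin bars are SDs of 3 libraries. Fpr1 stands highest in E. coli + ACs (2123 to 3094) and Fpr2 in IFN-γ + ACs (1316 to 1900), and both stand lowest in IL-4 + ACs.

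Fpr1 encodes the high-affinity receptor for bacterial formyl peptides. In the Type 1 experiment, its normalized counts were 716, 498 and 380 in ACs (mean 532 ± 171, SD, n = 3) and 3094, 2123 and 2854 in E. coli + ACs (2691 ± 506). They were 509, 774 and 739 in IFN-γ + ACs (674 ± 144) and 770, 724 and 839 in IFN-γ + E. coli + ACs (778 ± 57.7). The 3 libraries with E. coli alone lay above all 9 others, and the remaining groups lay close together, with ACs and IFN-γ + ACs overlapping. The rise with E. coli was 5.16-fold (log2 2.37 ± 0.20, SE, limma, adjusted p = 1.2e-07), which ranked 81 of 10166 genes by size of change. With IFN-γ the change was 0.37 on the log2 scale (95% interval -0.05 to 0.78, limma, adjusted p = 0.19) and did not pass. With both stimuli it was 1.51-fold (log2 0.59 ± 0.20, limma, adjusted p = 0.023), just past the threshold. That last call was lost with edgeR (log2 0.55), DESeq2 (0.56), array weights (0.58) and rescaling to the upper quartile (0.45), and without replicate 2 or 3 of ACs or replicate 1 or 3 of the combined group (0.38 to 0.60, adjusted p of 0.051 to 0.16). The call for IFN-γ was gained without replicate 1 of ACs, the highest of that group (log2 0.61, limma, adjusted p = 0.03).

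Fpr2, which responds to formyl peptides and also to host ligands such as annexin A1 and serum amyloid A, showed another order. Its normalized counts were 492, 414 and 363 in ACs (423 ± 65.0, n = 3) and 882, 643 and 820 in E. coli + ACs (782 ± 124). They were 1316, 1782 and 1900 in IFN-γ + ACs (1666 ± 309) and 1125, 1069 and 1403 in IFN-γ + E. coli + ACs (1199 ± 179). Every stimulated library lay above ACs and both groups with IFN-γ lay above E. coli + ACs, while they overlapped each other. The rise was 3.92-fold with IFN-γ (log2 1.97 ± 0.16, limma, adjusted p = 2.3e-08), 2.83-fold with both (1.502 ± 0.16, 5.7e-07) and 1.85-fold with E. coli (0.88 ± 0.16, 0.00087). These 3 calls held in every alternative that was run. In these comparisons the groups of 3 libraries did not overlap for 38.3% (E. coli), 42.9% (IFN-γ) and 48.8% (both) of all genes.

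The comparison of the single stimuli with each other pointed opposite ways for this pair of genes. Between IFN-γ + ACs and E. coli + ACs, where 16.6% of all genes passed (9.84% upward, 6.72% downward), Fpr1 was lower with IFN-γ (log2 -2.002 ± 0.20, limma, adjusted p = 4.1e-07) and Fpr2 higher (1.09 ± 0.16, 5.9e-05), in each case with no overlap (36.8% of all genes). Between IFN-γ + E. coli + ACs and E. coli + ACs, 19.4% of all genes passed (9.79% upward, 9.57% downward) and 39.3% did not overlap. Fpr1 was lower with both stimuli (log2 -1.77 ± 0.20, limma, adjusted p = 2.5e-06) and Fpr2 higher (0.62 ± 0.16, 0.0086). The Fpr2 call was lost with rescaling to the upper quartile (0.51), with all 18 libraries in one fit (0.62, adjusted p = 0.084), and without replicate 2 of E. coli + ACs (0.48) or replicate 3 of the combined group (0.50).

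Markers of other cell types and of eosinophils also changed in these comparisons. Of 7 neutrophil markers tested with E. coli, 3 rose and 1 fell. S100a8 was at 39.2 to 56.3 in ACs and 254 to 383 in E. coli + ACs. Cxcr2 was at 41.3 to 70.95 and 266 to 367 in these groups, and S100a9 at 0 to 4.08 and 36.9 to 51.9. Mmp8 was at 485 to 548 and 159 to 220. Ly6g, a surface marker of neutrophils, was at 7.04 or less in both groups. With IFN-γ 3 of the 7 rose and 1 fell, and with both 4 rose and 1 fell, where Ly6g was at 12.61 to 34.9 and 15.18 to 19.96 and S100a8 at 115 to 146 and 114 to 189. Of 12 macrophage markers, 6 fell and none rose with E. coli, 5 rose and 1 fell with IFN-γ, and 3 rose and 6 fell with both. Of 7 eosinophil markers tested, 1 rose and 1 fell with E. coli, 4 fell and none rose with IFN-γ, and 2 fell and none rose with both. Siglecf was among those that fell with IFN-γ, at 1514 to 1702 against 3169 to 3367 in ACs. In either direction, 10.3% of all tested genes passed with E. coli, 21.4% with IFN-γ and 31.9% with both. The part of these markers in the changes of the receptor genes was not tested.

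In the IL-4 experiment both formyl peptide receptor genes were lower with IL-4. Fpr1 had normalized counts of 311, 286 and 440 in ACs (345 ± 82.6, n = 3) and 57.4, 58.5 and 87.4 in IL-4 + ACs (67.7 ± 17.02). Fpr2 had 470, 343 and 676 in ACs (496 ± 168) and 75.3, 54.3 and 123 in IL-4 + ACs (84.3 ± 35.4). For each gene, all 3 libraries with IL-4 lay far under all 3 of ACs, and groups without overlap were seen for 17.3% of all genes. Fpr1 fell to 0.198 of its level in ACs (log2 -2.33 ± 0.24, limma, adjusted p = 0.0012) and Fpr2 to 0.169 (-2.57 ± 0.32, 0.0044), which ranked 71 and 42 of 10669 genes by size of change. Without the shallow replicate 3 of both groups the changes were -2.34 (limma, adjusted p = 3.5e-06) and -2.63 (9.3e-06). Of 12 macrophage markers 2 fell with IL-4, with Marco at 795 to 1265 in ACs and 129 to 190 in IL-4 + ACs. Of 6 neutrophil markers 1 fell (Mmp8, from 280 to 402 in ACs to 60.8 to 77.1), and of 9 eosinophil markers 2 rose (Ear2, from 26.8 to 74.7 to 205 to 257, and Ear6, from 3437 to 5441 to 8092 to 8689). Of all tested genes, 1.09% passed with IL-4 in either direction. The part of these markers in the result was not tested.

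**Figure D2:**
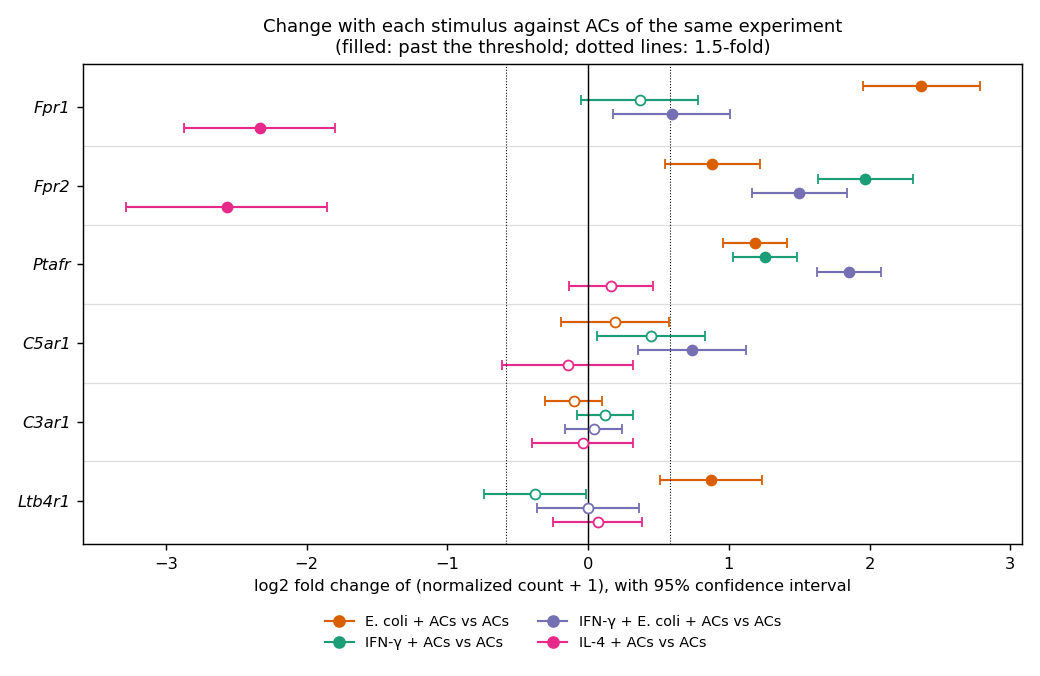
Log2 fold change of each receptor gene (vertical axis) with each stimulus against ACs of the same experiment; bars are 95% confidence intervals from limma, filled points are past the threshold and dotted lines are 1.5-fold. The points of Fpr1 and Fpr2 lie right of 0 with the Type 1 stimuli and at -2.33 and -2.57 with IL-4. The interval of Fpr1 with IFN-γ includes 0, as do those of C3ar1 with all 4 stimuli.

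The effects of IL-4 and of the Type 1 stimuli were also compared with each other, each taken against the ACs of its own experiment. The IL-4 effect minus the IFN-γ effect was -2.70 ± 0.32 for Fpr1 (limma, adjusted p = 3.5e-06) and -4.54 ± 0.35 for Fpr2 (1.1e-08), where 14.3% of all genes passed and 8.09% were downward. Against the E. coli effect, where 4.43% of all genes passed and 2.54% were downward, the differences were -4.70 ± 0.32 for Fpr1 (limma, adjusted p = 6.1e-09) and -3.45 ± 0.35 for Fpr2 (2.4e-06). Against the combined effect, where 20.4% of all genes passed and 10.8% were downward, they were -2.93 ± 0.32 (limma, adjusted p = 8.8e-07) and -4.07 ± 0.35 (4e-08). Experiment and stimulus cannot be told apart in levels between the experiments, and these differences assume that each ACs group serves its own experiment.

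Ptafr encodes the receptor for platelet-activating factor, a phospholipid that attracts and activates eosinophils. Its normalized counts were 1731, 1917 and 1718 in ACs (1789 ± 112, n = 3), 4181, 4348 and 3714 in E. coli + ACs (4081 ± 329), 4425, 3729 and 4720 in IFN-γ + ACs (4291 ± 509) and 6442, 6275 and 6689 in IFN-γ + E. coli + ACs (6469 ± 208). All stimulated libraries lay above ACs, the combined group lay above both single stimuli, and the single stimuli overlapped each other. The rise was 2.28-fold with E. coli (log2 1.19 ± 0.11, limma, adjusted p = 3.2e-07), 2.39-fold with IFN-γ (1.257 ± 0.11, 4.5e-08) and 3.62-fold with both (1.86 ± 0.11, 1.2e-10). Between the single stimuli the difference was 0.07 (95% interval -0.16 to 0.30, limma, adjusted p = 0.72).

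With both stimuli Ptafr was past the threshold against each single one, at log2 0.60 ± 0.11 over IFN-γ (limma, adjusted p = 0.00063), where 14.6% of all genes passed (5.96% upward), 29.6% did not overlap and no other receptor gene was past it, and 0.67 ± 0.11 over E. coli (0.00016). Both of those sit near 1.5-fold and fell under it with rescaling to the upper quartile (0.55 and 0.56), and the first also without replicate 2 of IFN-γ + ACs (0.50) or replicate 3 of the combined group (0.57). In the IL-4 experiment Ptafr was 1271, 1056 and 1356 in ACs and 1339, 1310 and 1455 in IL-4 + ACs. These groups overlapped and differed by log2 0.16 (95% interval -0.14 to 0.46, limma, adjusted p = 0.73). The IL-4 effect on Ptafr was below each Type 1 effect, with a difference of -1.09 ± 0.16 (limma, adjusted p = 5.8e-05) from IFN-γ, -1.03 ± 0.16 (0.00038) from E. coli and -1.69 ± 0.16 (1.5e-07) from both.

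Of the complement receptor genes, C5ar1 passed the threshold against ACs only with both Type 1 stimuli, and C3ar1 passed with no stimulus. C5ar1, whose product binds C5a, had normalized counts of 381, 319 and 267 in ACs (322 ± 57.4, n = 3), 311, 468 and 330 in E. coli + ACs (370 ± 85.4), 537, 422 and 363 in IFN-γ + ACs (441 ± 88.3) and 536, 458 and 617 in IFN-γ + E. coli + ACs (537 ± 79.3). Only the combined group lay clear of ACs. Its rise was 1.67-fold (log2 0.74 ± 0.18, limma, adjusted p = 0.0035) and held in every alternative run, whereas the changes with E. coli (0.19, 95% interval -0.20 to 0.57) and IFN-γ (0.45, 0.06 to 0.83, adjusted p = 0.08) did not pass. With IL-4 the counts were 430, 455 and 350 against 493, 566 and 332 in ACs, a change of -0.15 (95% interval -0.61 to 0.32, limma, adjusted p = 0.85). The IL-4 effect on C5ar1 minus that of both Type 1 stimuli was -0.88 ± 0.29 (limma, adjusted p = 0.034), a call lost with no filter (adjusted p = 0.091), with upper quartile rescaling (0.068) and in 7 of 18 fits without 1 library. Each of those 7 left out a library of a group in this difference. Leaving out a library of another group cannot move the difference itself.

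C3ar1, whose product binds C3a, stayed between 2735 and 3498 in all 12 libraries of the Type 1 experiment. Its means were 3000 ± 92.6 in ACs, 2794 ± 56.9 in E. coli + ACs, 3262 ± 205 in IFN-γ + ACs and 3083 ± 192 in IFN-γ + E. coli + ACs (n = 3 each). E. coli + ACs lay just under ACs and IFN-γ + ACs just above, with no overlap in either case, as for 38.3% and 42.9% of all genes, but no change passed the threshold. The 95% interval of the log2 change against ACs was -0.30 to 0.10 with E. coli, -0.08 to 0.32 with IFN-γ and -0.16 to 0.24 with both. In the IL-4 experiment the means were 2260 ± 509 in ACs and 2169 ± 165 in IL-4 + ACs, a change of -0.04 (95% interval -0.40 to 0.32, limma, adjusted p = 0.96).

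Ltb4r1 encodes the receptor for leukotriene B4, a lipid made from arachidonic acid. Its normalized counts were 263, 255 and 265 in ACs (261 ± 5.25, n = 3), 467, 482 and 486 in E. coli + ACs (478 ± 9.85), 222, 205 and 179 in IFN-γ + ACs (202 ± 21.7) and 265, 351 and 192 in IFN-γ + E. coli + ACs (269 ± 79.5). Libraries with E. coli alone lay above all others of that experiment, IFN-γ + ACs lay under ACs, and the combined group spread across ACs. The rise with E. coli was 1.83-fold (log2 0.87 ± 0.17, limma, adjusted p = 0.0018). With IFN-γ the change was -0.38 (95% interval -0.74 to -0.01, limma, adjusted p = 0.12) and with both 0.00 (-0.36 to 0.36). Ltb4r1 was lower with IFN-γ than with E. coli (log2 -1.25 ± 0.17, limma, adjusted p = 2.8e-05) and lower with both than with E. coli (-0.87 ± 0.17, 0.0011). With IL-4 it was 603, 631 and 509 against 581, 514 and 563 in ACs, and these groups overlapped. The IL-4 effect on Ltb4r1 minus the E. coli effect was -0.80 ± 0.23 (limma, adjusted p = 0.054), just short of the threshold, and it passed in 8 alternatives, among them edgeR (adjusted p = 0.031), DESeq2 (0.012) and array weights (0.001).

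Ltb4r1 was the receptor gene that differed past the threshold between the ACs groups of the 2 experiments, where 19.5% of all genes did (10.2% upward) and 42.4% did not overlap. Its level in the IL-4 experiment was 2.11 times that in the Type 1 experiment (log2 1.08 ± 0.16, limma, adjusted p = 5.7e-05). Ptafr (-0.55, limma, adjusted p = 0.0013) and C3ar1 (-0.43, 0.014) were lower there by less than 1.5-fold. Both groups had ACs alone, and what else differed between the experiments cannot be told apart.

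The order of the groups in the Type 1 experiment differed from gene to gene. For Fpr1 it ran from E. coli through both stimuli and IFN-γ to ACs, and only the step under E. coli was past the threshold. For Fpr2 it ran from IFN-γ through both stimuli and E. coli to ACs. The first of its steps was short of 1.5-fold, with overlap (log2 -0.47, limma, adjusted p = 0.049), and the others passed. For Ptafr it ran from both stimuli through IFN-γ and E. coli to ACs, with the middle step not resolved. No neighbouring groups differed past the threshold for C5ar1 or C3ar1, and for Ltb4r1 only E. coli stood apart from its neighbour.

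Whether the effect of E. coli depended on IFN-γ was tested with an interaction term, which was past the threshold for 7.44% of all genes and for 3 of the 6 receptor genes, all downward (4.28% of all genes). For Fpr1 the effect of E. coli was 2.37 without IFN-γ and 0.23 with it, a difference of -2.14 ± 0.28 (limma, adjusted p = 8e-05). The combined level was thus 0.227 of what the product of both single effects would give. For Fpr2 the effect of E. coli was 0.88 without IFN-γ and -0.47 with it, a difference of -1.35 ± 0.23 (limma, adjusted p = 0.0011). For Ptafr it was 1.19 and 0.60, a difference of -0.59 ± 0.15 (limma, adjusted p = 0.023), at the 1.5-fold limit. Ltb4r1 had a difference of -0.49 (95% interval -1.01 to 0.02), C5ar1 of 0.10 (-0.44 to 0.65) and C3ar1 of 0.02 (-0.26 to 0.31), and none of these passed.

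**Figure D3:**
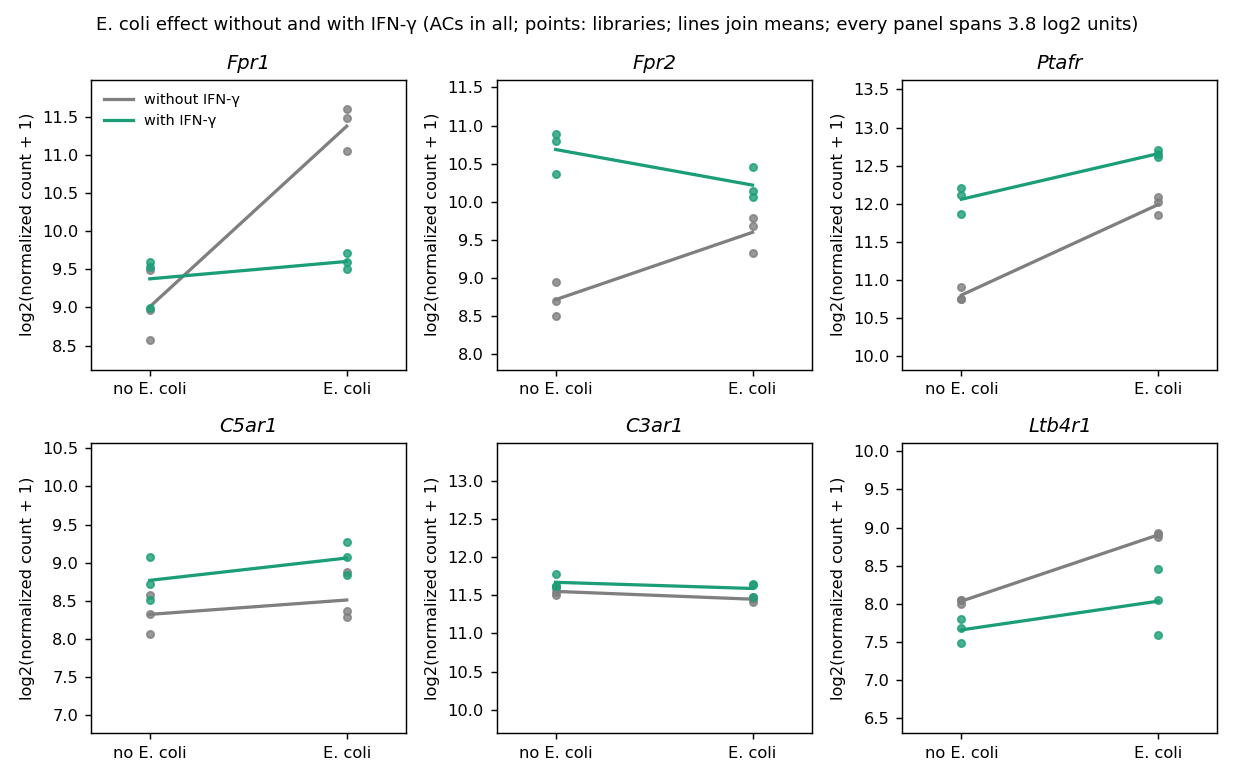
Log2 of normalized count plus 1 without and with E. coli in the Type 1 experiment, for libraries without IFN-γ (grey) and with IFN-γ (green); points are libraries and lines join group means. The Fpr1 line climbs by 2.37 without IFN-γ and by 0.23 with it, and the Fpr2 lines run in opposite directions.

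Close relatives and neighbours of these genes added little signal. Fpr3, whose annotated span overlaps Fpr2 on the same strand, and 4 further formyl peptide receptor genes had no read in any of the 18 libraries, and 3 reads correspond to at most 16.1 normalized counts. C5ar2, a second C5a receptor next to C5ar1, was at 12.2 or less. Ltb4r2, the low-affinity leukotriene B4 receptor that lies 823 bases from Ltb4r1, was at 37.5 or less. At these low counts it was past the threshold and lower than in E. coli + ACs (mean 21.2) in IFN-γ + ACs (3.09) and IFN-γ + E. coli + ACs (6.12). Per the methods of the study, only reads with a single place in the genome were counted, so that reads equally alike to several of these genes are not part of the values.

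Of 11 other receptors for lipids, complement, chemerin and histamine, 6 were tested. Ccrl2, which binds chemerin without signalling, rose from 112 to 127 in ACs to 313 to 360 with E. coli, 488 to 509 with IFN-γ and 815 to 856 with both (log2 1.46, 2.06 and 2.80, limma, adjusted p of 1.1e-07, 2e-10 and 1.7e-12). Gpr183, an oxysterol receptor, rose with the same 3 stimuli (1.41, 1.49 and 1.65). Cmklr1, the signalling receptor for chemerin, rose with IFN-γ (0.91) and fell with both (-0.61), and Cysltr1, a receptor for cysteinyl leukotrienes, fell with both (-1.31). The Cysltr1 levels were low, at 16.3 to 32.9 in ACs and 4.28 to 16.6 with both, and these groups overlapped. None of the 6 passed with IL-4 in limma, where 2 had an unadjusted p under 0.05 and Ccrl2 had a log2 change of -0.85 (adjusted p = 0.14). The median change of the 6 was 0.61, 0.53, 0.09 and -0.40 with E. coli, IFN-γ, both and IL-4, beside medians over all genes of -0.004, 0, -0.05 and -0.008.

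**Figure D4:**
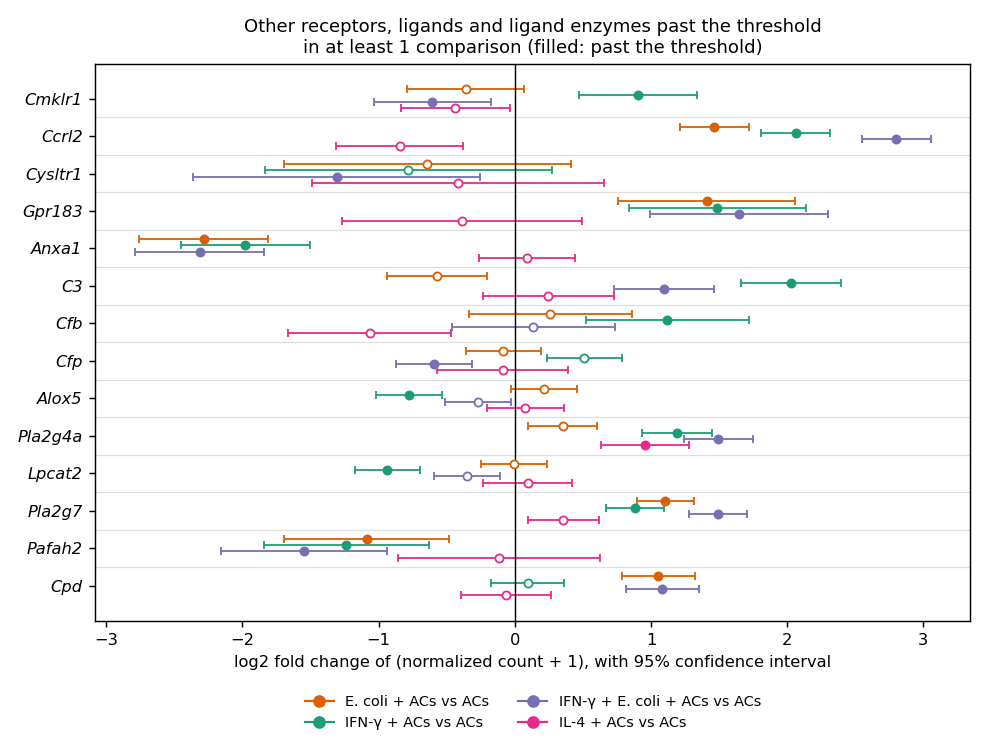
Log2 fold change with 95% confidence interval of the other receptors, ligand proteins and ligand enzymes past the threshold in at least 1 of the 4 comparisons against ACs; filled points are past it. Anxa1 lies near -2 with all 3 Type 1 stimuli and near 0 with IL-4, and Pla2g7 lies right of 0 with all 3.

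Among ligand proteins and the enzymes that make or remove ligands, 14 of 20 listed were tested with the Type 1 stimuli and 15 with IL-4. With E. coli 2 rose and 2 fell, with IFN-γ 4 rose and 4 fell, with both 4 rose and 3 fell, and with IL-4 1 rose, beside 10.3%, 21.4%, 31.9% and 1.09% of all genes in either direction. Their median change was 0.10, 0.11, -0.07 and 0.06, close to that of all genes. Anxa1, which encodes the Fpr2 ligand annexin A1, had normalized counts of 274, 295 and 234 in ACs, and 56.9, 58.1 and 47.5 with E. coli, 67.3, 67.6 and 65.7 with IFN-γ, and 48.5, 39.1 and 77.3 with both. All 9 stimulated libraries lay under ACs, and the fold changes were 0.206, 0.254 and 0.201 (limma, adjusted p of 9.5e-07, 1.9e-06 and 1.6e-07). With IL-4 Anxa1 was 273, 265 and 236 against 220, 251 and 257, and the groups overlapped. Saa3, a serum amyloid A gene, lay far higher, at 81591 to 116403 in ACs of the Type 1 experiment. It was 1.49-fold with E. coli (limma, adjusted p = 0.014), short of the threshold, and no stimulus moved it past the threshold against ACs. It passed downward in the interaction term and in the IL-4 effect minus the IFN-γ or the E. coli effect.

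Genes for handling platelet-activating factor changed in both directions. Pla2g7, a secreted enzyme that inactivates the lipid, rose from 19038 to 20847 in ACs to 40430 to 45725 with E. coli, 35954 to 37784 with IFN-γ and 53962 to 59484 with both, which is 2.15-fold, 1.84-fold and 2.81-fold. Pafah2, an intracellular enzyme with the same activity, fell to 0.470, 0.424 and 0.342 of ACs. Lpcat2, which makes platelet-activating factor, fell with IFN-γ (log2 -0.94, limma, adjusted p = 4.7e-06) and did not pass with the others. Pla2g4a, the phospholipase that releases arachidonic acid and the precursor of platelet-activating factor, rose with IFN-γ (1.19), with both (1.49) and with IL-4 (0.96, limma, adjusted p = 0.012). Alox5, which starts leukotriene synthesis, fell with IFN-γ (-0.77). In the complement system C3, the source of C3a, rose with IFN-γ (log2 2.03) and both (limma, adjusted p = 5.8e-05), Cfb, a protease of the alternative pathway, rose with IFN-γ (limma, adjusted p = 0.0063), and Cfp, which encodes properdin, fell with both (-0.59). Cpd, a carboxypeptidase, rose with E. coli (1.05) and both (1.08).

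Genes downstream of the receptors were counted in the same way. Of 19 genes for G proteins and effectors, 1 rose with E. coli (Gna15, 0.85), 1 rose and 2 fell with IFN-γ (Gng2, 1.17, against Plcb2, -1.04, and Fgr, -0.64), 3 rose and 1 fell with both, and none passed with IL-4, where 1 had an unadjusted p under 0.05. Of 11 tested genes that switch receptors off, none passed with E. coli or IL-4 in limma, where 7 and 1 had an unadjusted p under 0.05. With IFN-γ 4 fell, among them the G protein regulators Rgs18 (log2 -1.69, limma, adjusted p = 8.7e-07), Rgs14 (-1.15) and Rgs2 (-0.81). With both 5 fell and Arrb1, which encodes beta-arrestin 1, rose (0.96). The shares of all genes past the threshold were 10.3% with E. coli, 21.4% with IFN-γ, 31.9% with both and 1.09% with IL-4. The median change of these 11 was -0.24, -0.41, -0.58 and -0.17 with E. coli, IFN-γ, both and IL-4.

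Across the 18 libraries, the genes that followed each receptor gene most closely among 6906 compared were named by Pearson's r of the log2 level minus the mean of ACs of the same experiment. This is a description, since the points share libraries and depth. For Fpr1 they were Lcn2 (0.925), Pilra (0.921) and Il10 (0.915), and for Fpr2 Gstm1 (0.97), Ifi206 (0.95) and Smox (0.95). For Ptafr they were Mirt2 (0.988), Basp1 (0.981) and Gclc (0.974), and for Ltb4r1 Gfi1b (0.914), Cln3 (0.904) and Lpcat3 (0.895). The closest were Pcbp2 (0.903) for C5ar1 and Sdhd (0.811) for C3ar1.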

How the data were processed

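The 6 receptor genes, the gene lists and the marker lists were chosen with earlier results of these data known. For each gene and library the authors deposited a normalized signal, the read count over a DESeq2 size factor. Per the labels, reads were processed with FastQC 0.11.5, Trim Galore, cutadapt 1.10, TopHat2 2.1.0, Bowtie2 2.2.6, HTSeq 0.6.1 and DESeq2 1.26.0 on GRCm38. The methods of the study describe the same mapper and counter, with uniquely mapped reads only and union mode, and name fastp and STAR besides. Whether molecular identifiers were counted is not given in the sources used here. Intervals therefore describe the spread between libraries.

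Of 54446 identifiers 54409 were matched to a symbol with the version dropped. Values were whole multiples of 1 step in each library, which recovered whole reads for 100% of values (tolerance 0.006); edgeR 4.0.16 and DESeq2 1.42.0 were run on them as alternatives. Log2(normalized count + 1) was analysed in limma 3.58.1 (R 4.3.3; lmFit and eBayes with trend) for genes with a mean of at least 10, and p-values were adjusted by Benjamini-Hochberg over all genes tested. The Type 1 comparisons used 12 libraries, IL-4 used 6, and differences between IL-4 and Type 1 effects, or between ACs groups, used 18. The alternatives for the IL-4 effect minus the E. coli or the combined effect were chosen after seeing the data. So were some of those for the IL-4 effect minus the IFN-γ effect. Same-numbered libraries of IFN-γ + ACs and IFN-γ + E. coli + ACs deviated together (correlations of 0.1611 to 0.2211 over 3 pairs, against -0.1632 to 0.0256 for different numbers), so that these groups were also compared as pairs in their 6 libraries, an alternative likewise chosen after seeing the data. The labels name no shared animal or day, and this check alone cannot show that the libraries were paired. The fits were tested on simulated data. Other alternatives were a replicate block, array weights, upper quartile rescaling, no filter or a mean filter of 50, a pseudocount of 5, one fit of all 18 libraries, significance without a fold threshold, and fits without single libraries. Genes named beside the receptor genes were members of the lists that passed the threshold or are relatives or neighbours of a receptor gene, the markers that moved, and the 3 genes with the highest r for a receptor gene.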

Additional observations from a re-analysis of the deposited data

Results flagged for a closer look

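The effect of E. coli differed with and without IFN-γ for 3 receptor genes, by an interaction term in limma. The difference on the log2 scale was -2.14 for Fpr1, -1.35 for Fpr2 and -0.59 for Ptafr, each in groups of 3 libraries. Over the alternatives it ranged from -2.38 to -1.92 for Fpr1 and from -1.51 to -1.25 for Fpr2, and both stayed past the threshold in each. For Ptafr the call was lost with no filter on low values (adjusted p = 0.067), with array weights, edgeR and DESeq2 (log2 -0.56 to -0.57, just under 1.5-fold), and in 7 of 12 fits that left out 1 library.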

How the results depend on the processing

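Of the counts recomputed under an alternative, 323 stayed within 1.5 times and 17 did not. Of the changes of single receptor genes, 1461 kept their direction and side of the threshold, 36 lost a call, 19 gained one and 26 turned sign. Among these are fits without a library of a group outside the comparison, where the change itself cannot move. The Fpr1 and Fpr2 calls with IL-4, and the Fpr1, Fpr2, Ptafr and Ltb4r1 calls with E. coli, held in all alternatives. Between both stimuli and IFN-γ, 1 receptor gene passed, against 0 with upper quartile rescaling, 2 with no fold threshold and 0 to 2 without 1 library. Between both stimuli and E. coli 4 passed, against 2 with upper quartile rescaling, which moved the median of all genes from -0.04 to -0.15 there and from -0.05 to -0.18 for both stimuli against ACs. With IL-4, 116 genes of all passed, against 208 with no filter, 745 with array weights, 212 with edgeR, 209 with DESeq2, 221 with all 18 libraries in one fit, 656 without replicate 3 of both groups and 47 to 130 without 1 library (47 and 57 without replicate 1 and 2 of IL-4 + ACs, 62 and 61 without replicate 1 and 2 of ACs). The causes were not tested.

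Signs turned only where a change was near 0 and not called. With upper quartile rescaling, both stimuli against ACs gave -0.10 for C3ar1 and -0.14 for Ltb4r1, and the IL-4 effect minus the combined effect gave 0.0525 for C3ar1. C3ar1 with IL-4 was 0.0169 with array weights and 0.0764 without replicate 3 of both groups, and its IL-4 effect minus the combined effect was then 0.0382. Without 1 library, the ranges were -0.21 to 0.22 for Ltb4r1 with both stimuli, -0.0035 to 0.17 for Ptafr between IFN-γ and E. coli, -0.0248 to 0.29 for C5ar1 and -0.009 to 0.0735 for C3ar1 in the interaction, and -0.16 to 0.14 for C3ar1 and -0.37 to 0.016 for C5ar1 with IL-4. For the IL-4 effect minus another, they were -0.28 to 0.0173 (IFN-γ), -0.0609 to 0.24 (E. coli) and -0.20 to 0.10 (both) for C3ar1, and -0.15 to 0.28 (both) for Ltb4r1.

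Only for IFN-γ + ACs and IFN-γ + E. coli + ACs did all same-numbered libraries correlate above all others in their deviations. Same-numbered libraries of the other group pairs had correlations from -0.1207 to 0.0984. For E. coli + ACs and IFN-γ + ACs, same numbers gave -0.1207 to -0.1028 and different numbers 0.0016 to 0.1138, a separation in the opposite direction. The check alone therefore cannot show that libraries were paired. Paired in a replicate block of the 6 libraries with IFN-γ, 1 receptor gene passed as before (Ptafr, 0.60, limma, adjusted p = 0.0023). With a replicate block in all libraries of an experiment, 74 genes passed with IL-4 in place of 116, and Ltb4r1 passed in the IL-4 effect minus the E. coli effect (-0.80, limma, adjusted p = 0.049, against 0.054 without the block). No other call of a receptor gene changed under either block. In the shallow replicate 3 libraries of the IL-4 experiment 1 read stands for 5.14 and 5.36 normalized counts.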

Other observations

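The number of Fpr1 reads per Fpr2 read in the same library does not depend on the size factor, and it restates the values above on that footing. It was 1.05 to 1.46 in ACs of the Type 1 experiment, 3.3 to 3.51 in E. coli + ACs, 0.387 to 0.434 in IFN-γ + ACs and 0.598 to 0.684 in IFN-γ + E. coli + ACs, so that the 4 groups did not overlap. In the other experiment it was 0.708 to 1.08 in IL-4 + ACs and 0.651 to 0.832 in ACs, which overlapped. As the transcripts can differ in how well their reads map and are counted, the ratio is read only between groups and not as the relative abundance of the receptors.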
